A study of Mus musculus with 30 samples.

Results

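Of 30 single primordial germ cells (PGCs) measured on arrays, the 13 labelled WT were divided by *Sox2* transcript. A cell was taken as having *Sox2* when the deposited log2 value of its *Sox2* probe set was above 6, and 6 cells had it while 7 did not. Both parents of the C57BL/6 embryos were *Prdm14* (+/-), and the embryos were in the allantois bud stage (E7.25 to E7.5). They were picked from the base of the allantois bud and taken as PGCs when their amplified cDNA was positive for *Prdm1* by PCR, and the 13 cells carry the genotype label *Prdm14* (+/+). The remaining cells were 13 labelled *Prdm14* (+/-) and 4 labelled *Prdm14* KO, from the same stage and strain. They are called "labelled" because the level of *Prdm14* ran against the labels in this series, being lowest in the cells labelled WT. The level of *Sox2* chose the members and is given as a description. The labels name no embryo, so each side counted as 1 sample, no test was run, and every SD is the spread between cells. The numbers of the cells only name them.

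SOX2 is a transcription factor that binds DNA together with POU5F1 and holds the pluripotent network of the epiblast and of embryonic stem cells. PGCs arise from proximal epiblast cells under BMP and WNT signals. They pass through a state that shares genes with early mesoderm, and *Sox2* returns together with other pluripotency genes as the germ cell programme of *Prdm1*, *Tfap2c* and *Prdm14* is set up. Naive pluripotency genes such as *Klf2* and *Esrrb* mark the ground state of embryonic stem cells, whereas *Pou5f1* and *Nanog* are shared by naive and later states.

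*Sox2* lies on chromosome 3 of the mouse genome (GRCm38) from 34649995 to 34652461. Its RefSeq promoter window, 250 bases before to 50 after a start of the gene (GRCm38.p6, + strand, chr3:34649745-34650044), is shown because this gene made the split. Beside it stands the window of *Hsf2bp* (- strand, chr17:32034459-32034758), the gene detected in the same cells as *Sox2*. Capitals mark the letters ATGCAAA, the core of the octamer that POU factors bind, searched on both strands.
Sox2: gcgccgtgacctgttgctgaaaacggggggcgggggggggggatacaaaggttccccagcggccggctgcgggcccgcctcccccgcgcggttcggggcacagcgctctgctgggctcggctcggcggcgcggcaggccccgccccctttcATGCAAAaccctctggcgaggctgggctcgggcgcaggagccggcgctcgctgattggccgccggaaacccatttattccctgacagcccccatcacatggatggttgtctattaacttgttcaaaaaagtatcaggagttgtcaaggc
Hsf2bp: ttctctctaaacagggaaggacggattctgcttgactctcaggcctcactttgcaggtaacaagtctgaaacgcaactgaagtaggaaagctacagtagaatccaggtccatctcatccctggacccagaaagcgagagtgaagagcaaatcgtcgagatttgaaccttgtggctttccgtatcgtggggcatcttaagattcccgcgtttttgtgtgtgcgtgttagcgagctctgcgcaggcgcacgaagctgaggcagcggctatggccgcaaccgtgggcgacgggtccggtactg
The *Sox2* window held these letters once and the *Hsf2bp* window did not hold them, while 4.63% of all 32851 windows of this length did. The letters CATTGT of the SOX motif, present in 12.6% of all windows, were in neither. They were found for *Sgk1* and *Zfp606* among the 19 genes named below that had a window.

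Values are log2 model-based expression indices (MBEI), and values below 6 (64 MBEI) were set to 6, called the floor here. Each gene is given by 1 probe set, the one highest on average across all 30 cells. Other probe sets are named for some genes only, and a difference given for 1 probe set can be smaller, absent or reversed on another. *Sox2* was at 8.65 in cell 2, 8.57 in cell 3, 12.31 in cell 6, 10.65 in cell 7, 8.93 in cell 11 and 7.40 in cell 12. In cells 1, 4, 5, 8, 9, 10 and 13 it was listed at 0. The lowest cell inside the threshold was thus at 7.40 and every cell outside it at 0, so the same cells are separated by any threshold between these values. A value of 0 in amplified cDNA of 1 cell can be an absent transcript or one lost in amplification, and these cannot be told apart here. *Sox2* was above 6 in 10 of the 13 cells labelled *Prdm14* (+/-) and in all 4 labelled *Prdm14* KO, where it lay between 12.17 and 12.72. Cell 6 was the only cell labelled WT that reached the levels of the latter. Array codes placed the cells labelled WT in runs 1 and 2 and those labelled *Prdm14* (+/-) in runs 2 and 3. All 4 labelled *Prdm14* KO were in run 3, so label and run cannot be fully told apart.

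**Figure D1:**
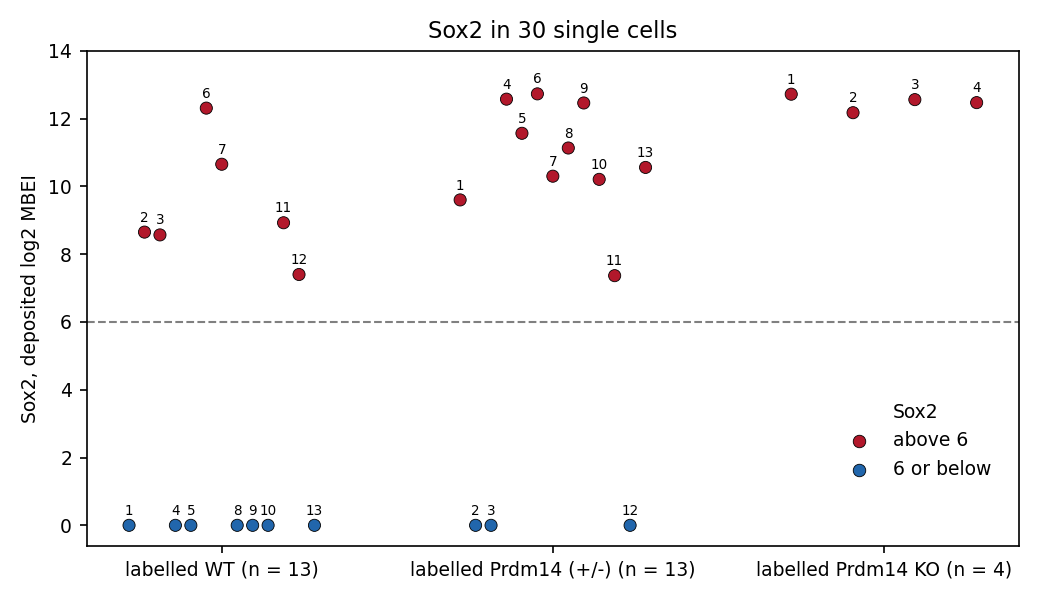
Deposited *Sox2* value (vertical axis, log2 MBEI) of each of the 30 cells, by genotype label (horizontal axis), with the cell number above each point and the threshold of 6 as a dashed line. The cells labelled WT lie either at 0 (7 cells) or between 7.40 and 12.31 (6 cells), with none between.

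Of the 16 germ cell genes measured, 11 were above the floor in 3 or more of the 13 cells. *Prdm1*, the transcriptional repressor that begins the germ cell programme and the gene by which the cells were picked, was above it in all 13, as were *Alpl*, *Dnd1*, *Ifitm1* and *Ifitm3*. *Tfap2c* and *Kit* were above it in 5 of 6 cells with *Sox2* and 7 of 7 without, and *Dppa3* in 3 of 6 and 7 of 7. *Itgb3* and *Rhox6* were at the floor in all 13 cells, and *Rhox5*, *Rhox9* and *Pecam1* were above it in 1 or 2. The number of probe sets above the floor per cell was 10802 to 14204 (median 12062) with *Sox2* and 9861 to 13511 (median 11782) without, of 45101. By their array codes, the cells with *Sox2* came from run 1 in 4 cases and run 2 in 2, and those without from run 1 in 6 cases and run 2 in 1. *Xist* was above the floor in 4 of 6 cells with and 3 of 7 without *Sox2*, and the Y-linked *Eif2s3y* in 2 of 6 and 3 of 7, so each side held cells of embryos of both sexes. Pearson correlations between arrays over all probe sets had a median of 0.679 in the 15 pairs with *Sox2*, 0.664 in the 21 pairs without and 0.673 in the 42 pairs of 1 cell from each side.

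Most pluripotency genes were found in nearly all cells or in few, whether *Sox2* was there or not. Of 32 measured pluripotency genes, 16 naive and 16 core or shared, none differed by 2 or more between the sides, which is a 4-fold difference of level. Of these, 8 naive and 15 core genes were above the floor in at least 3 of the 13 cells. Over all 9545 genes that passed this filter, called compared here and without *Sox2*, 87 were higher by 2 or more in the cells with *Sox2* (0.911%) and 35 were lower (0.367%). Among all genes compared, the state, above the floor or not, matched that of *Sox2* in 11 cells or more for 55 (0.576%), and for none of the 32 pluripotency genes. Such a match was out of reach for genes above the floor in 9 cells or more or in 3 or fewer. These included the 11 of the 32 found in 11 cells or more and the 9 found in 2 or fewer. They also included *Dppa5a*, found in 9 cells, and *Tfcp2l1*, *Fbxo15* and *Utf1*, found in 3 each. Among the 3739 genes above the floor in 4 to 9 cells the share was 1.47%, although those found in 9 cells could not reach the match. With 23 pluripotency genes compared, counts of 0 are near these shares and set the pluripotency genes apart from other genes in neither direction.

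The 32 genes fell into 3 patterns. Above the floor in 11 cells or more were 11 genes, which were on with or without *Sox2*. *Pou5f1*, the partner of SOX2 on DNA, was at 11.01 to 12.59 (median 11.90) with *Sox2* and 10.44 to 12.21 (median 11.54) without, with means of 11.83 ± 0.64 (SD, n = 6 cells) and 11.42 ± 0.58 (SD, n = 7). *Sall4*, a zinc finger factor of pluripotent and germ cells, was at 12.38 and 12.25 on average, and *Lin28a*, an RNA-binding repressor of let-7 maturation, at 11.18 and 11.15. On its other probe set *Sall4* was less even, with means of 9.20 with and 7.70 without *Sox2*. That probe set was above the floor in 5 of 6 and 4 of 7 cells. With all probe sets of *Sall4* averaged, the difference was 0.82. *Nanog*, a homeobox factor, was above the floor in all 7 cells without *Sox2* and in 5 of 6 with it, its means being 9.78 ± 2.01 (SD, n = 6) and 10.33 ± 1.21 (SD, n = 7). The cells overlapped in all 4 genes, and the sign of the difference of *Nanog* turned (0.21) when cell 7, the cell without *Nanog*, was left out.

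The second pattern, above the floor in 2 cells or fewer, held 9 genes of the stem cell ground state or of early embryos. *Klf2*, a Krüppel-like factor, was at 10.45 in cell 6 and below the floor in the 12 other cells labelled WT. *Esrrb*, an orphan nuclear receptor, was at 8.51 in cell 6 and below the floor in the others, while another probe set of it was above the floor in 1 cell of each side, at 7.73 with and 7.89 without *Sox2*. In the 4 cells labelled *Prdm14* KO, *Klf2* was at 9.95 to 10.85 and *Esrrb* at 6.68 to 9.67, so that cell 6, which had the most *Sox2*, lay within both ranges. *Tcl1*, *Nr0b1* and *Dppa4* were at the floor in all 13 cells.

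The third pattern held 12 genes above the floor in 3 to 10 cells. Only in this pattern could a gene reach the match counted above for all genes, and not all of the 12 could. It was out of reach for *Dppa5a*, found in 9 cells, and for *Tfcp2l1*, *Fbxo15* and *Utf1*, found in 3 each. How many cells match is thus partly set by how many cells a gene is found in. The 12 genes matched *Sox2* in 2 to 9 of the 13 cells with a median of 8. The closest were *Prdm14*, *Gbx2* and *Nr5a2*, which matched *Sox2* in 9 of 13 cells. *Prdm14*, a regulator of germ cell reprogramming, was above the floor in 4 of 6 cells with *Sox2* and 2 of 7 without, with means of 7.62 ± 1.70 (SD, n = 6) and 7.22 ± 2.08 (SD, n = 7). The difference of 0.40 became -0.07 without cell 6. *Gbx2*, a homeobox gene downstream of LIF signalling, was above the floor in 4 of 6 and 2 of 7 cells, and *Nr5a2*, a nuclear receptor that activates *Pou5f1*, in 3 of 6 and 1 of 7. The means of *Gbx2* were 7.81 and 6.55 and those of *Nr5a2* 7.54 and 6.54, differences within the pooled SDs between cells of 1.30 and 1.58. Other probe sets of *Nr5a2* were above the floor in 0 of 6 and at most 1 of 7 cells. Averaged over all its probe sets the difference was 0.09.

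*Klf5*, a Krüppel-like factor of the naive network, was above the floor in all 6 cells with *Sox2*, between 9.03 and 10.28, and in 5 of 7 without, between 6.95 and 10.77 where it was found. Its mean was 9.74 ± 0.50 (SD, n = 6) against 8.48 ± 2.09 (SD, n = 7), a difference of 1.26, and 2 of the 7 cells were at the floor. *Dppa5a*, which encodes an RNA-binding protein of pluripotent cells, was above the floor in 5 of 6 and 4 of 7 cells. *Stat3*, the transducer of LIF signals, ran the other way, above the floor in 1 of 6 and 6 of 7 cells, but no cell exceeded 6.87 on this probe set. Another was above the floor in 1 cell without *Sox2* alone, at 9.08.

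Summed over the lists, the sides overlapped. The mean level of the 16 naive genes was 6.92 ± 0.41 (SD, n = 6) with *Sox2* and 6.63 ± 0.21 (SD, n = 7) without, a difference of 0.29 that became 0.13 without cell 6. That of the 16 core genes was 9.73 ± 0.36 (SD, n = 6) and 9.53 ± 0.21 (SD, n = 7). A cell with *Sox2* had 3 to 8 naive genes above the floor and a cell without it 2 to 7, with cell 6 highest at 8 and cell 13, without *Sox2*, next at 7.

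**Figure D2:**
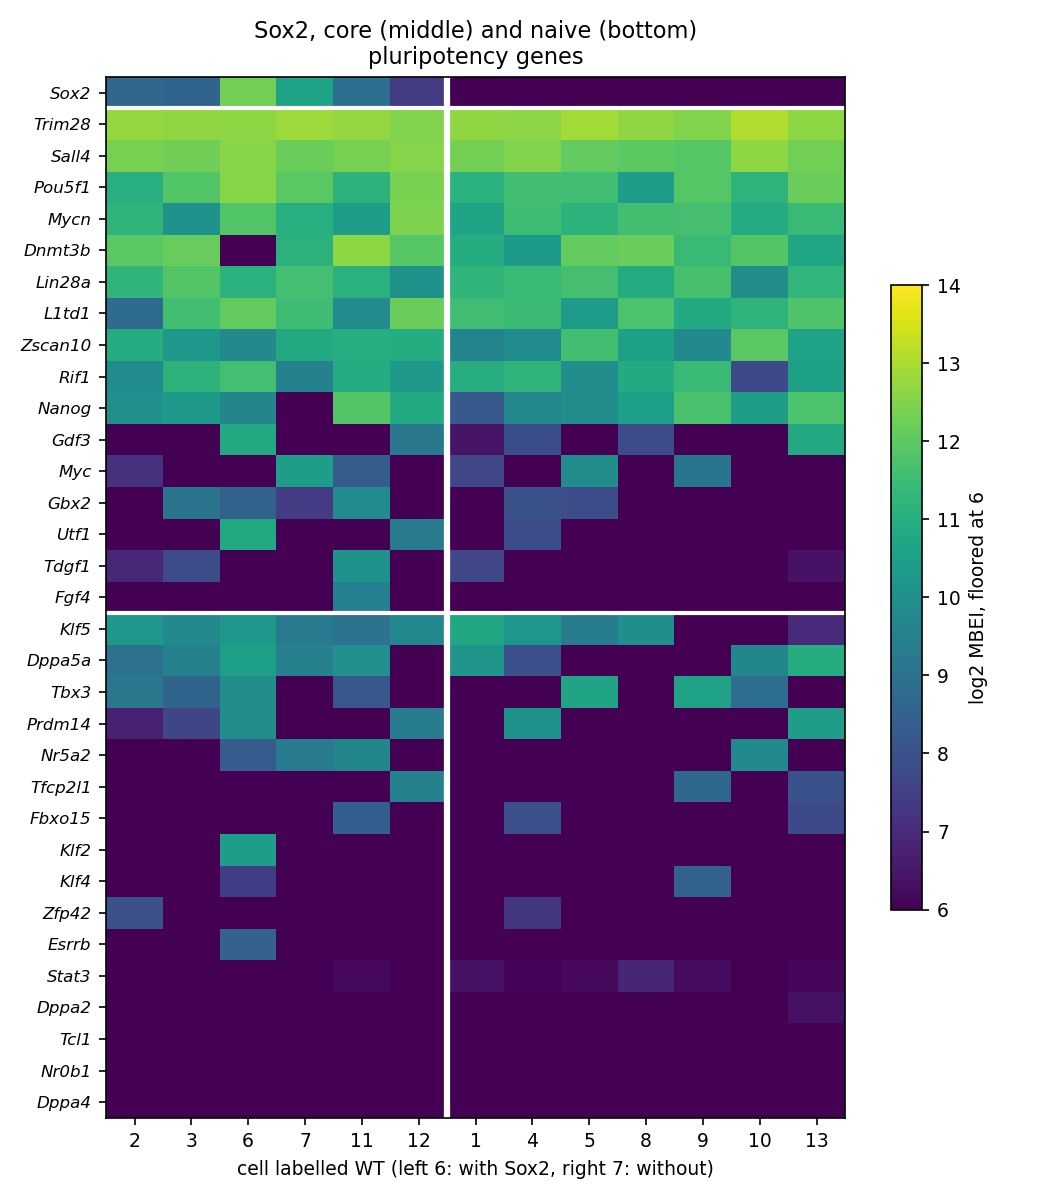
Levels of *Sox2*, the 16 core and shared pluripotency genes and the 16 naive genes (rows, sorted by mean within each list) in the 13 cells labelled WT (columns, numbered), in log2 MBEI floored at 6 (colour). The core genes at the top are bright on both sides, the probe sets shown for *Klf2* and *Esrrb* are seen in cell 6 alone, and no row follows the first one across the white line.

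Other SOX genes were also compared, since several family members bind the same motif. Of 19 measured, 8 were at the floor in all 13 cells, 6 of them on all their probe sets. The exceptions were *Sox9*, at 10.46 on another probe set in 1 cell without *Sox2*, and *Sox5*, at 7.10 in 1 such cell. None of the 9 compared differed by 2 or more on the probe set used. *Sox3*, a SOXB1 factor like *Sox2*, was above the floor in all 7 cells without *Sox2*, at 10.68 to 12.57, and in 5 of the 6 with it, at 10.38 to 12.06 in those 5. Its mean was lower with *Sox2* by 1.26, and by 0.33 when cell 11, where it was below the floor at 5.64, was left out. *Sox17*, a factor of endoderm and, in some mammals, of germ cells, was above the floor in 4 of 6 and 6 of 7 cells with means of 9.22 ± 2.58 (SD, n = 6) and 10.33 ± 2.06 (SD, n = 7). Its difference of -1.11 became -0.47 without cell 11, and its other probe set, above the floor in 3 of 6 and 6 of 7 cells, gave -2.03.

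Of 11 germ cell genes compared out of 16 measured, 1 was lower by 2 or more with *Sox2* and 0 were higher, beside 0.367% and 0.911% of all genes. The lower gene was *Dppa3*, which encodes a nuclear protein of PGCs and oocytes. It was at 7.82 in cell 2, 9.26 in cell 3 and 11.77 in cell 6, and below the floor in cells 7, 11 and 12. In the 7 cells without *Sox2* it was always found, between 9.02 and 11.21 with a median of 10.10. The means were 7.81 ± 2.35 (SD, n = 6) and 10.11 ± 0.79 (SD, n = 7), and the difference of -2.30 was larger than the pooled SD of 1.69. The sides overlapped, since cell 6 was above every cell without *Sox2*. Leaving out 1 cell at a time gave -3.09 to -1.94. Within run 1 the difference was -1.54, and with the run as a block -1.91.

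*Elf3*, an ETS factor, and *Tfap2c*, the AP-2γ factor of germ cell specification, were lower with *Sox2* by 1 or more, as were 6.49% of all genes compared. *Elf3* was above the floor in 4 of 6 and 7 of 7 cells, with means of 8.93 ± 2.34 (SD, n = 6) and 10.53 ± 1.07 (SD, n = 7). *Tfap2c* was at 10.32 to 12.08 in 5 cells with *Sox2* and at 1.36 in cell 11, and at 11.01 to 12.11 in the 7 cells without. Its mean difference of -1.37 became -0.51 without cell 11, and other probe sets gave -0.30 and -0.22. *Prdm1* itself differed by 0.01, at 10.12 ± 1.30 (SD, n = 6) and 10.11 ± 1.22 (SD, n = 7), and *Kit*, the receptor for the survival factor of PGCs, by -0.26. The mean of the 16 germ cell genes was 8.84 ± 0.76 (SD, n = 6) and 9.18 ± 0.37 (SD, n = 7), lowest in cell 11 at 7.75.

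Several genes of early mesoderm had higher means with *Sox2*. Of 16 compared out of 22 measured, 2 were higher by 2 or more and 0 were lower, beside 0.911% and 0.367% of all genes. The median difference over the 16 was 0.22 against 0.05 over all genes. *Hoxb1*, a Hox gene of the posterior primitive streak, was at 8.77 in cell 2, 7.17 in cell 3, 9.79 in cell 7 and 10.97 in cell 11. It was below the floor in cells 6 and 12 and in all 7 cells without *Sox2*, and its mean was higher by 2.12 with *Sox2*. *Mesp1*, a bHLH factor of nascent mesoderm, was at 10.96 to 13.01 in 5 cells with *Sox2* and listed at 0 in cell 6, while without *Sox2* it was above the floor in 4 of 7 cells, at 9.76 to 11.69. Its means were 11.02 ± 2.54 (SD, n = 6) and 8.85 ± 2.73 (SD, n = 7), a difference of 2.17 within the pooled SD of 2.65. Within run 1 the differences were 1.93 for *Hoxb1* and 1.59 for *Mesp1*.

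*Tbx6*, a T-box factor of paraxial mesoderm, was above the floor in 4 of 6 and 1 of 7 cells and higher by 1.48. *Cdx1* was above it in 4 of 6 and 3 of 7 and higher by 1.49, *Mixl1* in 3 of 6 and 1 of 7 and higher by 1.38. *Wnt3a*, a ligand of the primitive streak, was above it in 5 of 6 and 3 of 7 cells and higher by 1.56, but lower by 0.63 among the cells with *Xist* alone. *Cdx2* and *Bmp4* of the same list stood lower. Of the 16 mesoderm genes compared, 6 were higher and 2 lower by 1 or more, beside 9.30% and 6.49% of all genes. *Cdx2*, a caudal factor of posterior tissue, was at 9.58 to 11.01 with *Sox2* and 10.92 to 11.87 without, with means of 10.30 ± 0.63 (SD, n = 6) and 11.42 ± 0.38 (SD, n = 7), and its difference of -1.11 exceeded the pooled SD of 0.51. *Bmp4*, the signal that induces PGCs, was lower by 1.57 and listed at 0 in cell 3, and leaving out 1 cell at a time gave -2.05 to -0.80. *Msx1*, *Msx2* and *Evx1* were above the floor in all 13 cells and differed by -0.09, -0.04 and -0.01.

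The cells of a side differed in how many mesoderm and germ cell genes they held. Of the 22 mesoderm genes, 9 to 16 were above the floor in a cell with *Sox2* (median 13.5) and 9 to 13 in a cell without (median 10). Of the 16 germ cell genes these numbers were 7 to 12 (median 9.5) and 9 to 12 (median 11). Cell 11 had 15 mesoderm genes and 8 germ cell genes above the floor, cell 7 had 13 and 7, and cell 6 had 9 and 11. The mean over the mesoderm genes was 8.45 ± 0.45 (SD, n = 6) with *Sox2* and 8.01 ± 0.43 (SD, n = 7) without. Their part in the differences of single genes was not tested.

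**Figure D3:**
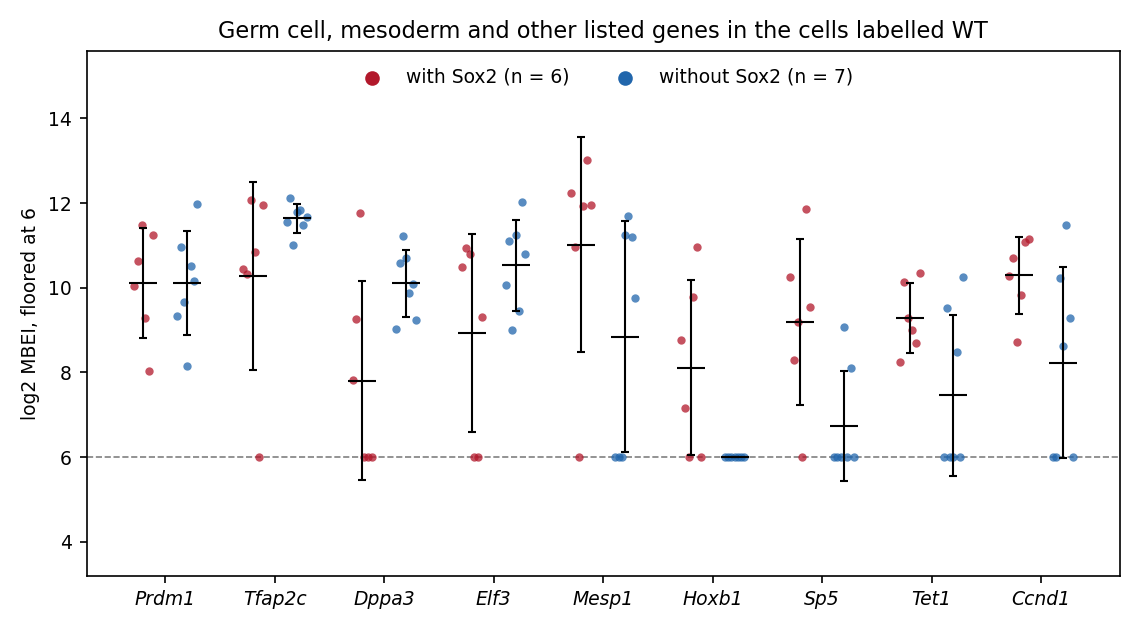
Levels of 9 listed genes (horizontal axis) in the cells labelled WT, in log2 MBEI floored at 6 (vertical axis), with *Sox2* in red (n = 6) and without in blue (n = 7). Each point is a cell, and the bars give the mean and SD between cells. *Prdm1* lies level on both sides, *Dppa3* reaches the floor in 3 cells with *Sox2* only, and *Hoxb1* leaves the floor in 4 cells with *Sox2* only.

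Markers of other tissues ranged from lists mostly at the floor to lists that were widely found. The endoderm list was lower with *Sox2*, its mean level being 6.28 ± 0.15 (SD, n = 6) with and 6.51 ± 0.15 (SD, n = 7) without. The difference of -0.24 was larger than the pooled SD of 0.15, and leaving out 1 cell at a time gave -0.27 to -0.18. In the cells labelled *Prdm14* (+/-) it was -0.34, with a pooled SD of 0.18. Of the 14 endoderm genes 6 were at the floor in all 13 cells, 5 of them, with *Afp* and *Ttr*, on all their probe sets, and the 2 compared were *Sox17* and *Dab2*. *Dab2*, an endocytic adaptor of extraembryonic endoderm, was above the floor in 1 of 6 and 4 of 7 cells and lower by 1.37. The blood and endothelial list had 7 of 13 at the floor in all cells, including *Gata1* and *Runx1*, and a mean of 6.00 to 6.57 and 6.00 to 6.66. In the neural list 8 of 13 were at the floor in all cells, including *Sox1* and *Pax6*, and the mean was 6.09 to 6.77 and 6.20 to 6.88. The extraembryonic ectoderm and epiblast lists were higher. Of 11 extraembryonic ectoderm genes, 7 were above the floor in 3 or more cells and 3, among them *Elf5*, were at it in all, and the list mean was 6.72 to 7.91 and 6.28 to 8.23. The keratins *Krt18* and *Krt8*, of simple epithelia, were above the floor in 6 of 6 cells with *Sox2* and in 6 and 5 of the 7 without. Of 14 epiblast genes, 8 were above the floor in 3 or more cells, and *Fgf5*, *Otx2* and *Pou3f1* were at it in all. Besides *Sox3*, the claudin gene *Cldn6* was above it in 4 of 6 and 6 of 7 cells and *Igfbp2*, an IGF-binding protein, in 5 of 6 and 5 of 7, and the list mean was 6.85 to 8.10 and 6.66 to 8.00. No gene of these 5 lists differed by 2 or more on the probe set used. *Cdh2*, N-cadherin, was above the floor in 2 of 6 and 6 of 7 cells and lower by 1.70 with *Sox2*. Another probe set of *Cdh2* was above the floor in 3 of 6 and 4 of 7 cells and gave -0.04. *Bmp8b*, a BMP ligand of extraembryonic ectoderm, was above the floor in 0 of 6 and 4 of 7 cells, at 7.84 to 8.29 in those 4.

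In the list of WNT and BMP targets, 1 of 14 compared was higher by 2 or more and 0 were lower, beside 0.911% and 0.367% of all genes. *Sp5*, a direct target of WNT signalling, was at 8.31 to 11.86 in 5 cells with *Sox2* and listed at 0 in cell 7, while of the 7 cells without it cell 8 had 9.06 and cell 10 had 8.11. The means were 9.19 ± 1.97 (SD, n = 6) and 6.74 ± 1.29 (SD, n = 7), and the difference of 2.46 was larger than the pooled SD of 1.63 and was 1.58 within run 1. *Nkd1*, an inhibitor of WNT signalling, was higher by 1.21, above the floor in 5 of 6 and 3 of 7 cells, and *Id4*, of the inhibitors of differentiation, was lower by 1.22, above it in 5 of 6 and 7 of 7. The other 11 differed by less than 1, although a second probe set of *Wls*, a carrier of WNT ligands, gave -2.02. *Axin2* differed by -0.07, *Lef1* by 0.48 and *Id1*, a target of BMP signalling, by -0.17. In the list of FGF-MAPK targets none of 14 differed by 2 or more.

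Among 25 cell cycle genes, 1 was higher by 2 or more with *Sox2* and 0 were lower, beside 0.911% and 0.367% of all genes. *Ccnd1*, cyclin D1 of the G1 phase, was at 8.73 to 11.16 in all 6 cells with *Sox2*, and above the floor in 4 of the 7 without, at 8.64 to 11.48. Its means were 10.30 ± 0.92 (SD, n = 6) and 8.23 ± 2.26 (SD, n = 7), a difference of 2.06 that was 0.09 among the cells with *Xist*. Other probe sets of *Ccnd1* gave 0.77 and 1.46. By 1 or more, 3 of the 25 were higher and 4 lower, beside 9.30% and 6.49% of all genes compared. *Ccne1*, cyclin E1, was higher by 1.75, and above the floor in 6 of 6 and 4 of 7 cells. The proliferation marker *Mki67* was listed at 0 in cells 7 and 12 and at 10.19 to 12.03 in the 11 others, so its mean was lower with *Sox2*, 9.49 against 10.99, while the median was higher by 0.17. The mitotic kinases *Aurka* and *Aurkb* were lower by 1.36 and 1.23, above the floor in 5 of 6 and 7 of 7 cells and in 4 of 6 and 6 of 7, and *Cdkn1c*, an inhibitor of cyclin-dependent kinases, was lower by 1.16. *Ccne2*, cyclin E2, was higher by 1.08. The replication genes *Mcm2* to *Mcm7* and *Pcna* were above the floor in all cells and differed by at most 0.40.

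None of 8 DNA methylation genes and 18 histone modifiers compared differed by 2 or more. The most unequal was *Tet1*, which encodes the dioxygenase that oxidises 5-methylcytosine. *Tet1* was at 8.25 to 10.36 in all 6 cells with *Sox2*, and in the 7 without it was at 9.52 in cell 4, 8.47 in cell 9 and 10.26 in cell 13 and listed at 0 in the other 4. The means were 9.29 ± 0.82 (SD, n = 6) and 7.46 ± 1.90 (SD, n = 7), and the difference of 1.83 exceeded the pooled SD of 1.51, with 2.17 within run 1 and 1.54 with the run as a block. It came from the probe set with the highest mean. Averaged over all 4 probe sets of the gene, 2 of which were at the floor in all 13 cells, it was 0.41. The remaining probe set was above the floor in 3 of 6 and 3 of 7 cells and gave -0.19. *Kdm6a*, an H3K27 demethylase on the X chromosome, was higher by 1.44, *Kdm4c*, an H3K9 demethylase, by 1.40 and *Jarid2*, of the polycomb complex PRC2, by 1.25. Another probe set of *Kdm6a*, above the floor in 4 of 6 and 5 of 7 cells, gave 0.003. *Dnmt1* differed by 0.18, *Uhrf1*, its partner at the replication fork, by 0.42, and *Ezh2* by -0.11.

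Of 16 later germline genes that are silenced by methylation, 8 were at the floor in all 13 cells, and none of the 3 compared differed by 2 or more. *Sycp3*, of the meiotic chromosome axis, was above the floor in 3 cells of each side, at up to 10.60 with and 8.85 without *Sox2*. The RNA helicase gene *Ddx4* was above it in 2 cells of each side, at up to 10.44 and 9.77, and *Asz1*, of the piRNA pathway, in 4 of 6 and 5 of 7, at up to 7.81 and 7.89. The stress list, also without such a gene, had a mean of 7.06 ± 0.35 (SD, n = 6) with *Sox2* and 6.98 ± 0.38 (SD, n = 7) without. That of 12 housekeeping genes was 11.60 ± 0.20 (SD, n = 6) and 11.45 ± 0.28 (SD, n = 7). Over all lists together, 4 of the 182 listed genes compared were higher by 2 or more (2.2%) and 1 was lower (0.549%), beside 0.911% and 0.367% of all genes.

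The genes that separated the sides most fully lay outside the lists and were picked from all 9545 compared. Of the 87 genes higher by 2 or more, 53 were above the floor in all 6 cells with *Sox2* and 9 were at the floor in all 7 without. Of the 35 lower genes, 15 were above the floor in all 7 cells without *Sox2* and 5 were at the floor in all 6 with it. By detection, 92 genes were above the floor in at least 5 of the 6 cells with *Sox2* and at most 2 of the 7 without (0.964%), and 54 in at most 1 of 6 and at least 5 of 7 (0.566%). The cells of the sides did not overlap for 7 genes that were higher with *Sox2* (0.0733%) and 4 that were lower (0.0419%). The former were *Atg3*, *Dcaf10*, *Hip1*, *Hsf2bp*, *Mcts2*, *Taf4* and *Yae1d1*, and the latter *Cdk12*, *Pik3r2*, *Sftpb* and 4933433N18Rik, of which *Hip1*, *Mcts2*, *Taf4*, *Yae1d1*, *Cdk12* and 4933433N18Rik were named here after their values were seen. The counts by difference depended on the floor, at 414 higher and 253 lower with a floor of 4 and 1 each with a floor of 8.

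*Hsf2bp* was the only gene compared that was above the floor in exactly the cells with *Sox2*. It encodes a partner of the heat shock factor HSF2 that is needed for meiotic recombination, and lies on chromosome 17 of GRCm38 from 31944769 to 32034895. It was at 8.84 in cell 2, 8.75 in cell 3, 6.71 in cell 6, 10.35 in cell 7, 8.59 in cell 11 and 9.29 in cell 12, and listed at 0 in the other 7. The cell with the most *Sox2*, cell 6, thus had the least *Hsf2bp*. Another probe set of *Hsf2bp* was at the floor in all 13 cells. *Sftpb*, which encodes a surfactant protein, had the opposite pattern, listed at 0 in all 6 cells with *Sox2* and between 7.18 and 7.85 in the 7 without, near the floor.

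The other genes most like *Sox2* by detection matched it in 12 of 13 cells. *Scarb2*, a lysosomal membrane protein, had the largest difference of all genes compared, 3.83. It was at 9.45 to 11.56 in 5 cells with *Sox2* and listed at 0 in cell 11 and in all 7 cells without. *Kiz*, a centrosomal protein, and *Slc1a5*, a glutamine transporter, were above the floor in the 6 cells and in cell 13, higher by 2.62 and 2.51. *Inip*, a component of a complex that binds single-stranded DNA, was above it in the 6 cells and in cell 4, higher by 2.32. A second probe set of *Scarb2* was at the floor in all 6 cells with *Sox2*, and those of *Inip* were above the floor in 2 of the 6 cells each. That of *Slc1a5* gave -0.02.

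Of the 10 highest genes the others were also found in some cells without *Sox2*. *Dgkk*, a diacylglycerol kinase, was at 9.67 to 11.06 in the 6 cells with *Sox2* and above the floor in 3 of 7 without, and was higher by 2.94. *Jmjd1c*, of the JmjC demethylase family, was above the floor in 6 of 6 and 3 of 7 and higher by 2.85, and *Atg3*, an enzyme of autophagosome formation, in 6 of 6 and 2 of 7 and higher by 2.81. *Sgk1*, a kinase induced by serum and glucocorticoids, was at 9.34 to 11.16 in the 6 cells and above the floor in 4 of 7, at 11.72 in cell 9. *Dcaf10* (2.86), *Timm21* (2.77), *B4galt5* (2.74) and *Ppp1r26* (2.72) completed the 10 with the differences given in brackets. Another probe set of *Jmjd1c* gave -0.01.

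The 10 lowest genes were chosen to be above the floor in at least 6 of the 7 cells without *Sox2*. *Pik3r2*, a regulatory subunit of phosphoinositide 3-kinase, was at 8.57 to 10.43 in the 7 cells without *Sox2*, and above the floor in cell 11 alone, at 8.47, among the 6 with it. Its means were 6.41 ± 1.01 (SD, n = 6) and 9.61 ± 0.70 (SD, n = 7), a difference of -3.20. *Cyp2s1*, a cytochrome P450, was at 9.56 to 11.24 in the 7 cells and above the floor in cells 2 and 3 on the other side, a difference of -2.97. *Gorasp2*, a Golgi stacking protein, was at 10.04 to 11.67 in the 7 and above the floor in 3 of 6, lower by 2.86, though another of its probe sets was higher by 0.71. The others were 2210016F16Rik (-2.94), *Greb1l* (-2.81), *Mtmr12* (-2.65), *Rnf139* (-2.64), *Cox6b2* (-2.63), *Ncald* (-2.62) and *Zfp606* (-2.48). On other probe sets found in some cells, 2210016F16Rik gave -0.52 and -0.14, *Greb1l* -0.01, *Ncald* -0.11 and *Zfp606* -0.59.

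**Figure D4:**
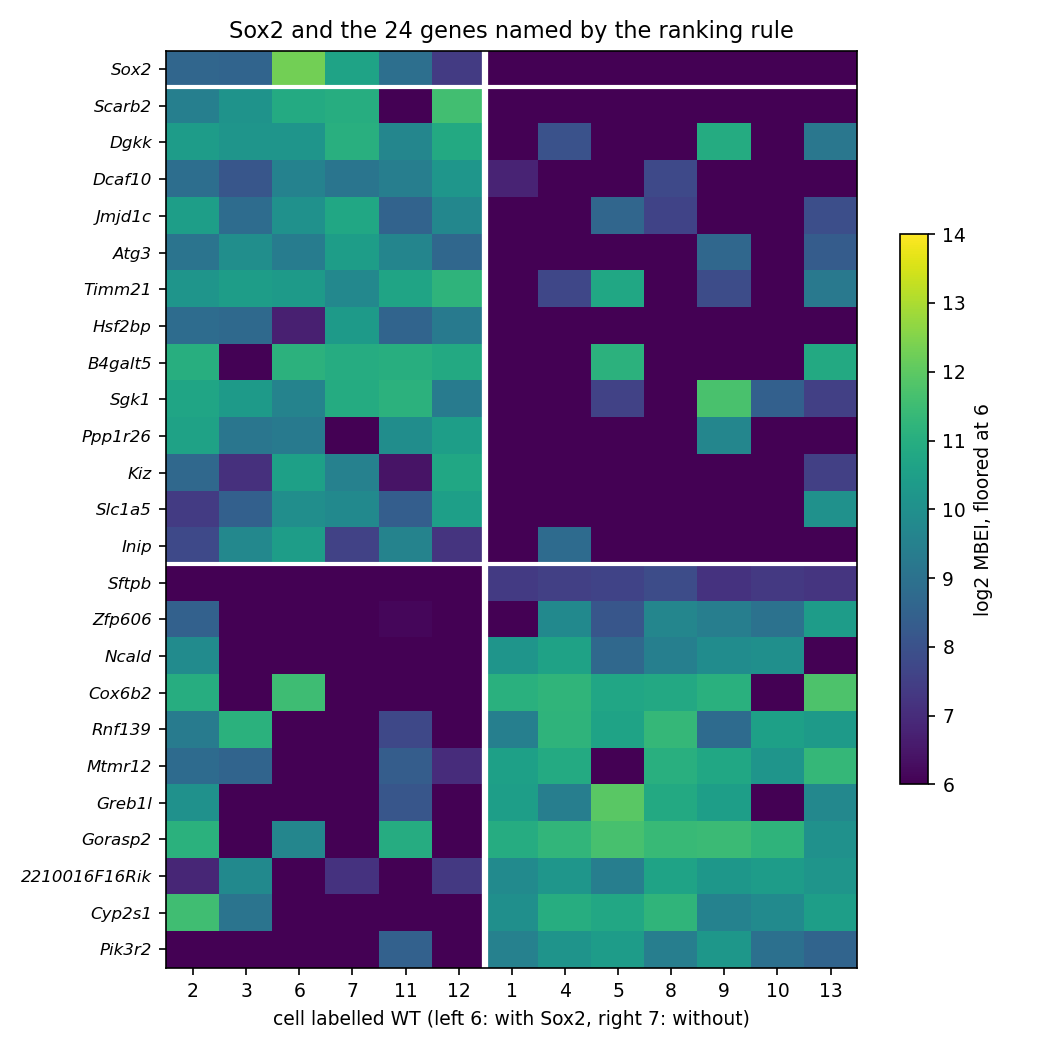
Levels of *Sox2* (top row) and 24 genes named by a ranking rule (rows, sorted by difference) in the 13 cells labelled WT (columns, numbered), in log2 MBEI floored at 6 (colour). The genes were chosen for this contrast. *Hsf2bp* and *Sftpb* follow the white line in every cell, and each of the others differs from the pattern of *Sox2* in 1 or more cells.

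The 13 cells labelled *Prdm14* (+/-), which the split did not use, were divided at the same threshold into 10 with and 3 without *Sox2*. Over 9747 genes compared there, 155 were higher by 2 or more with *Sox2* (1.59%) and 283 were lower (2.9%). Of the 87 genes higher in the cells labelled WT, 83 could be compared in both labels, and 38 of them were higher with *Sox2* here too (45.8%), beside 44.8% of all 8936 genes compared in both. By 2 or more 3 were higher (3.61%), beside 1.66% of all genes. Of the 35 lower genes 34 could be compared and 22 were lower here (64.7%), beside 55.2% of all genes, and 3 by 2 or more (8.82%), beside 2.90% of all genes. Among the 10 highest genes *Sgk1* alone was past 2 again, at 9.64 with and 7.10 without *Sox2*, and among the 10 lowest *Greb1l* (-2.19) and *Zfp606* (-2.54) were. *Hsf2bp* was at the floor in the 3 cells without *Sox2* and above it in 5 of the 10 with it, which averaged 7.36, and *Scarb2* differed by 0.27.

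*Dppa3* had the opposite direction in these cells. It was above the floor in 9 of 10 cells with *Sox2* and 1 of 3 without, with means of 11.11 and 7.28, a difference of 3.83 where it was -2.30 in the cells labelled WT. *Prdm14* was higher with *Sox2* by 2.63, *Klf5* by 2.20, *Klf2* by 2.03 and *Pou5f1* by 1.64, beside 0.40, 1.26, 0.74 and 0.40 in the cells labelled WT. Other members of the pluripotency lists went the other way in these cells, such as *Myc* (-4.30), *Tbx3* (-2.74) and *Dnmt3b* (-2.62). The mean of the naive list was higher with *Sox2* by 0.38 (pooled SD 0.43) and that of the core list by 0.21 (pooled SD 0.39). *Klf2* was above the floor in 5 of 10 and 0 of 3 cells. The mean over the germ cell list was higher by 0.87 there and lower by 0.34 in the cells labelled WT, and that of the mesoderm list lower by 0.39 and higher by 0.44. The difference between the labels was not tested, the labels also differ in array run, and 3 cells stand for the side without *Sox2*.

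**Figure D5:**
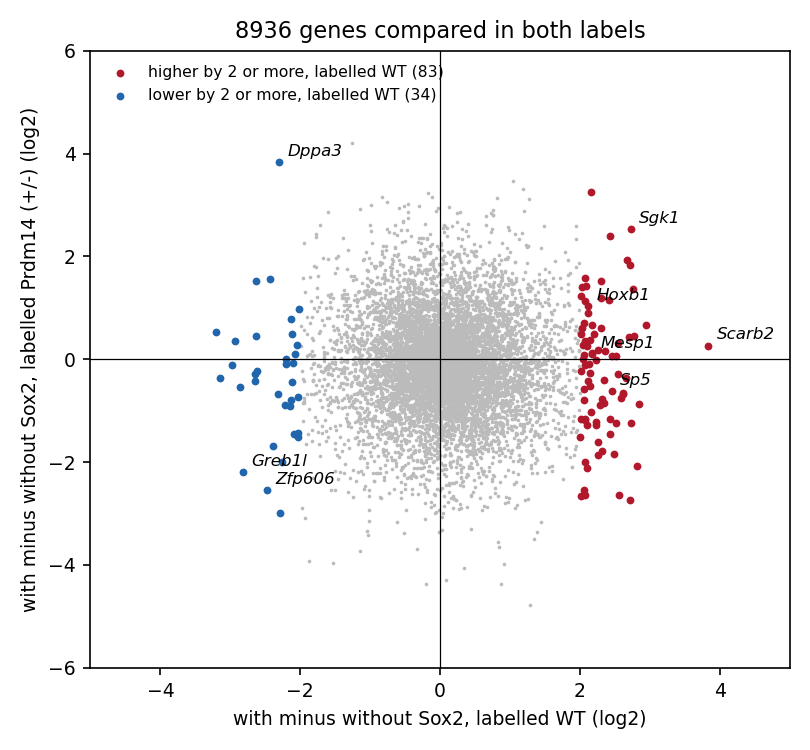
Difference between cells with and without *Sox2* in the cells labelled WT (horizontal axis, log2) against the same difference in the cells labelled *Prdm14* (+/-) (vertical axis, log2), for the 8936 genes compared in both. Genes higher (red, 83) or lower (blue, 34) by 2 or more in the cells labelled WT lie on both sides of 0 on the vertical axis, and *Dppa3* lies at -2.30 and 3.83.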

How the data were processed

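Gene expression was measured in 30 single PGCs, 1 Affymetrix Mouse Genome 430 2.0 array a cell. The authors hybridised amplified cDNA and obtained the deposited log2 MBEI values with dChip 1.3 (PM/MM difference model). Any scaling of arrays to one another and the way 0 was assigned were not given in the sources used here. No scaling was added, and values were floored at 6. Since values at the floor have no order, a difference of floored means understates the distance to a group at the floor. Array signals give no read depth, and the number of arrays limits the precision.

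The cells labelled WT were chosen by label and split at 6 by the deposited *Sox2* value, for which the array has 1 probe set. Gene symbols came from GEO's annotation table of the platform, and matching them by Entrez identifier to RefSeq (GRCm38) updated 0. Of 45101 probe sets, 34958 had 1 symbol, 932 several and 9211 none. A gene with several probe sets was represented by the one whose mean over all 30 cells was highest, giving 18194 genes, and those above 6 in at least 3 of the 13 cells were compared (9545). A difference of means of 2 or more was counted. Each side was 1 sample, so no test was made. No arrays held identical values.

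The members, the 18 gene lists and the rules were chosen with earlier results of these data known. On the lists, 20 symbols were not found and were not analysed here. Named genes were the list members, the 10 highest and 10 lowest genes past 2 whose higher side averaged at least 8 with at most 1 cell at the floor, genes whose detection followed the split in all 13 cells, and the 5 whose detection matched *Sox2* in most cells. Array runs were read from the array codes. Alternatives were other floors and thresholds, scalings, medians, run as a block or run 1 alone, detected probe sets as a covariate, all probe sets averaged and each cell left out. The difference of means and its count past 2 were checked on simulated shifts in genes above 6 in most cells. Detection counts, list means and genes mostly at the floor were not part of that check. Scripts ran in Python 3.11.15 with pandas 2.3.3 and NumPy 2.4.6, and matplotlib 3.10.9 drew the plots.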

Additional observations from a re-analysis of the deposited data

Results flagged for a closer look

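In groups of 6 or 7 cells, the highest or lowest cell was compared with its nearest neighbour over 82 groups of cells, and 16 stood apart. Chance sets 1 in 20 such groups apart, and many of these are single cells above a floor shared by the rest. For the naive pluripotency genes, cell 6 with *Sox2* had the highest mean level, 7.72, far from the other 5.

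Among genes higher with *Sox2*, *B4galt5* was at 6.04 in cell 3 and *Ppp1r26* at the floor of 6 in cell 7, below the other cells with *Sox2*. On the side without it, *Sgk1* at 11.7 and *Ppp1r26* at 9.67, both in cell 9, were above the other 6 cells. *Kiz* at 7.52 and *Slc1a5* at 10.03 in cell 13, and *Inip* at 8.78 in cell 4, were each the single cell above the floor there.

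Among genes lower with *Sox2*, *Pik3r2* at 8.47 in cell 11, 2210016F16Rik at 9.80 in cell 3, *Ncald* at 9.86 in cell 2 and *Zfp606* at 8.48 in cell 2 stood above the other cells with *Sox2*. *Greb1l* and *Cox6b2* in cell 10, *Mtmr12* in cell 5 and *Ncald* in cell 13 were at the floor of 6, below the other cells without it.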

How the results depend on the processing

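The counts of genes depended on the settings, whereas the means of the naive, core and germ cell lists kept their sign and moved by less than the SD between cells under the alternatives run. The naive list ranged from 0.10 to 0.51, the core list from 0.01 to 0.30 and the germ cell list from -0.55 to -0.09. Beside 87 higher and 35 lower genes, there were 414 and 253 with a floor of 4 and 1 and 1 with a floor of 8, 482 and 311 with medians, and 35 and 15 with all probe sets of a gene averaged. Scaling to the same 75th percentile, which moved the median difference of all genes from 0.05 to -0.15, gave 110 lower genes, and probe sets above 6 per cell as a covariate gave 62. Run 1 alone gave 192 higher and 69 lower genes, and 490 and 242 by detection beside 92 and 54. Leaving out each cell in turn gave 88 to 130 higher, 43 to 75 lower, 125 to 211 detected with and 81 to 134 detected without *Sox2*. With fewer cells the detection rules ask for fewer cells by construction, and the cause of the other shifts was not tested. Chosen after seeing the data, the cells with *Xist* above 6 alone gave 313 higher and 267 lower genes and 2007 and 1540 by detection, and leaving out cells 6 and 7, the cells with the most *Sox2*, gave 157 and 68, and 372 and 128. Of the 24 genes named by the ranking rule 23 kept their sign under all alternatives, the exception being *Sftpb*, at 0 with a floor of 8. Of 29 others, 20 did, and those that did not were *Esrrb*, *Klf2*, *Lin28a*, *Mki67*, *Nanog*, *Prdm14*, *Sall4*, *Utf1* and *Wnt3a*. No paired analysis was possible because the cell numbers are given in accession order and both sides come from the same label. With 1 cell per array, cells within a side differ by as much as most of the differences given, and no replicate embryo is named.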
